A study of Mus musculus with 8 samples.

Results

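The genes described here build and supply the primary cilium, the single antenna-like projection that most cells of embryonic skin carry. They comprise 44 genes chosen by symbol for their known role in intraflagellar transport, in the BBSome or in the transition zone, out of 20152 genes with a row in the authors' deposited table. All 44 had a row, and all 44 had an average expression of at least 1 CPM (reads of a gene scaled to equal library totals), read as 26.8 units of that table. The table compares back skin of GNAQ R183Q mouse embryos at E14.5 (4 libraries) with back skin of wild-type embryos of that stage (4 libraries). GNAQ R183Q is a changed form of the alpha subunit of the G protein Gq. The labels used here do not say which cells carried it, how many copies were changed, or whether all embryos shared a strain.

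Cilium components are carried along the microtubule core in trains. The IFT-B complex moves outward with kinesin-II, the IFT-A complex and the dynein-2 motor return, and the BBSome is a coat that lets membrane proteins ride on the trains. At the base, the transition zone is a gate made of the MKS and NPHP modules. In skin, cilia of epidermal and dermal cells are known to be needed for Hedgehog signalling in hair follicle formation.

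Skin of GNAQ R183Q embryos had modestly higher mRNA of 4 cilium genes, and no cilium gene was significantly lower. The 4 were Rpgrip1l and Dzip1l of the transition zone, Wdr35 of IFT-A and Ift88 of IFT-B, and their increases lay between 1.26-fold and 1.42-fold in the authors' deposited table. A gene counts as changed here when the authors' DESeq2 p, adjusted over all 20152 genes, was under 0.05. By that rule 4 of 44 cilium genes were higher and 0 lower, against a background of 0.630% higher and 2.46% lower, or 3.09% in either direction, over all genes. Among the 9428 genes within the range of average expression of the cilium genes, the shares were 0.870% higher and 3.68% lower, or 4.55% in either direction. At an unadjusted p of 0.05, 10 cilium genes were higher and 2 lower, against 5.94% and 8.23% of all genes and 6.59% and 11.7% of genes within that range of expression. With the trend on transcript length and GC subtracted, Rpgrip1l did not pass, at a Benjamini-Hochberg adjusted p of 0.103. A linear model rebuilt from the mean z-scores, which shares no spread between genes, called 0 cilium genes and 0 of all 20152. In RNA of whole dissected skin, fewer cells of a type and less RNA per cell cannot be told apart. In the same libraries 6 of 8 keratinocyte markers fell, and the part of cell makeup in the cilium results was not tested.

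The cilium genes as a list lay slightly above the rest of the table. Their median log2 fold change was 0.17, with quartiles of -0.03 and 0.32, while the median over all genes was 0.01 with quartiles of -0.24 and 0.23. A positive fold change was seen for 31 of the 44, or 70.5%, against 51.0% of all genes and 47.0% of genes within the same range of expression. Individual changes ran from -0.55 for Ift20 to 0.55 for Tmem231 in the authors' deposited table, so none reached 2-fold. The 95% interval implied by each fold change and p lay within 2-fold in both directions for 40 of the 44, and within 1.5-fold for 24. Intervals of Ift20, Dync2h1, B9d2 and Nphp4 reached past 2-fold.

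**Figure D1:**
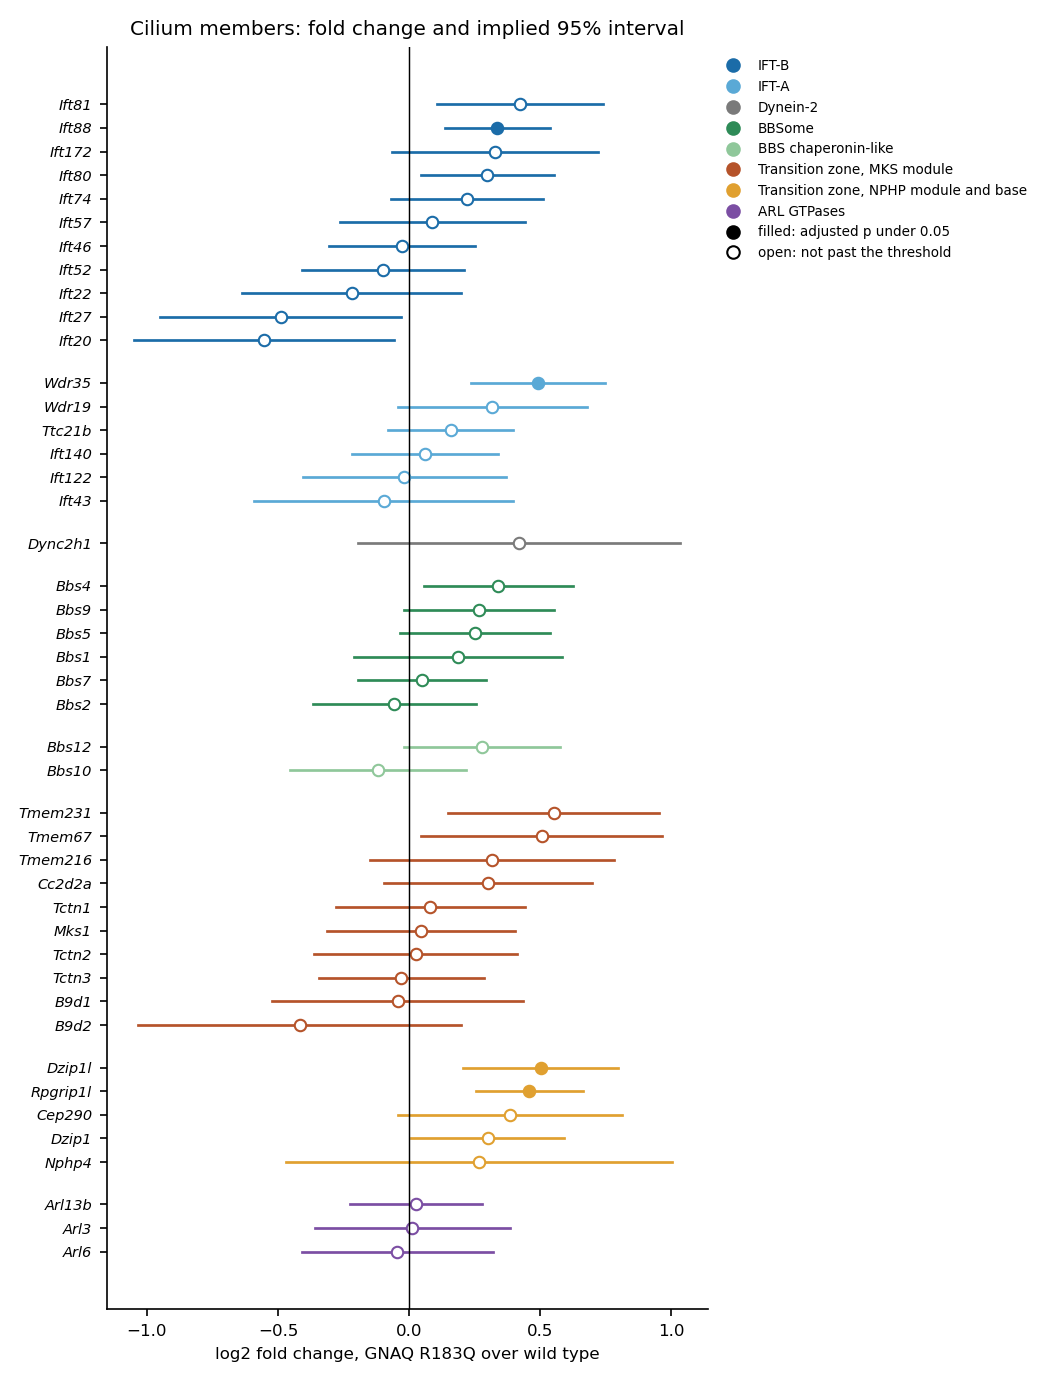
Log2 fold changes (GNAQ R183Q against wild type) of the 44 cilium genes, grouped by role; points are the authors' values and lines the implied 95% intervals. The 4 filled points, Ift88, Wdr35, Dzip1l and Rpgrip1l, all lie right of 0, and Ift20, Ift27 and B9d2 lie farthest left.

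The table gives no value for a single library, so agreement among embryos was read from the z-scores of log2 CPM across the 8 libraries that the authors averaged by genotype. Where a genotype's mean z-score exceeds 0.810 in size, its 4 libraries and the 4 of the other genotype cannot overlap. This bound holds for z-scores scaled by the sample standard deviation, a scaling that was assumed and is not stated in the sources used here. The largest mean z-score of any gene was 0.924 in size, and the largest possible with that scaling is 0.935. That bound was passed upward by 3 cilium genes and downward by 0, against 0.729% of all genes upward and 1.85% downward, and 0.806% and 2.69% within the same range of expression. Mean z-scores of Ift88 were 0.870 in GNAQ R183Q skin and -0.870 in wild-type skin, those of Rpgrip1l 0.848 and -0.848, and those of Wdr35 0.828 and -0.828 in the authors' deposited table. Their median z-scores in the authors' deposited table were 0.844 in GNAQ R183Q skin and -0.805 in wild-type skin for Ift88, 0.818 and -0.697 for Rpgrip1l, and 0.720 and -0.869 for Wdr35. With the assumed scaling, every GNAQ R183Q library was therefore higher than every wild-type library for these 3 genes. Dzip1l, with 0.740 in GNAQ R183Q skin and -0.740 in wild-type skin in the authors' deposited table, was not shown to separate the genotypes. Bbs5 and Bbs4 came close to that bound without a significant change, with 0.799 and 0.794 in GNAQ R183Q skin and -0.799 and -0.794 in wild-type skin in the authors' deposited table.

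**Figure D2:**
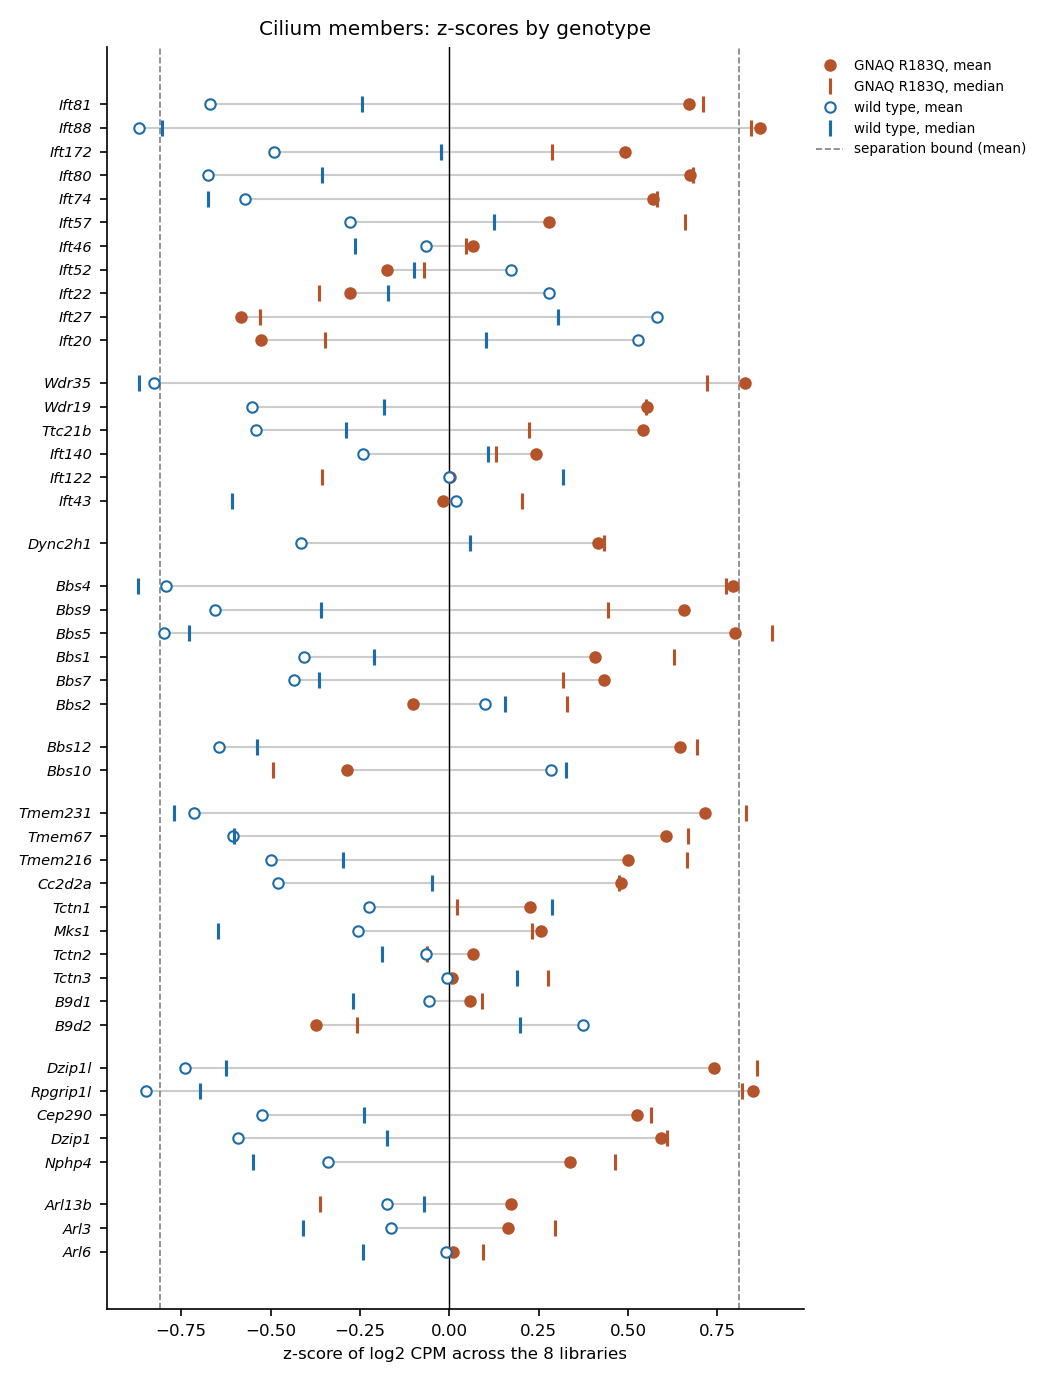
Mean (circles) and median (bars) z-score of log2 CPM across the 8 libraries for each cilium gene, in GNAQ R183Q (orange) and wild-type (blue) skin; dashed lines mark the separation bound of 0.810. The means of Ift88, Wdr35 and Rpgrip1l lie outside the dashed lines, and those of Bbs4 and Bbs5 just inside.

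IFT-B genes were split, with 1 increase among 11, where 0.630% of all genes were higher. Ift88, a core subunit without which cilia are not built, stood at 0.34 on the log2 scale in the authors' deposited table, at an average expression of 656. Its implied 95% interval was 0.14 to 0.54 and its DESeq2 adjusted p 0.0358. Ift81 and Ift74 encode partners that together bind tubulin cargo. They stood at 0.42 and 0.22 in the authors' deposited table, with intervals of 0.11 to 0.74 and -0.07 to 0.51 and DESeq2 adjusted p of 0.151 and 0.516. Ift80 stood at 0.30 and Ift172, a subunit of the IFT-B outer part, at 0.33 in the authors' deposited table, with DESeq2 adjusted p of 0.233 and 0.468.

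At the other end, Ift20, which is also known at the Golgi where it sorts cargo to the cilium, had the lowest log2 value of all 44, -0.55 in the authors' deposited table. Its implied interval ran from -1.05 to -0.06 and its DESeq2 adjusted p was 0.280, so it did not pass. Ift27, a small GTPase-like subunit that links the trains to BBSome exit, stood at -0.49 in the authors' deposited table, with an interval from -0.95 to -0.03 and a DESeq2 adjusted p of 0.311. Both had an unadjusted p under 0.05, at 0.0293 and 0.0369 in the authors' deposited table. The remaining IFT-B genes, Ift22, Ift52, Ift46 and Ift57, lay between -0.22 and 0.09 in the authors' deposited table.

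IFT-A genes held 1 increase among 6, where 0.630% of all genes were higher. Wdr35, which encodes the IFT121 subunit and is mutated in human skeletal ciliopathies, stood at 0.49 in the authors' deposited table, a 1.41-fold increase at an average expression of 704. The interval ran from 0.24 to 0.75 and the DESeq2 adjusted p was 0.00865. Wdr19 (IFT144) stood at 0.32 and Ttc21b (IFT139) at 0.16 in the authors' deposited table, and both intervals, -0.04 to 0.68 and -0.08 to 0.40, included 0. Ift140, Ift122 and Ift43 were near 0, at 0.06, -0.02 and -0.10 in the authors' deposited table. The dynein-2 heavy chain gene Dync2h1, which drives the return journey, had 0.42 in the authors' deposited table with a wide interval of -0.19 to 1.04 and a DESeq2 adjusted p of 0.568.

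No BBSome gene passed, against 3.09% of all genes. At an unadjusted DESeq2 p of 0.05, 1 was higher, against 5.94% of all genes. Of the 6 subunit genes among the 44, 5 had positive values and 1, Bbs2 at -0.06, a negative value in the authors' deposited table. Over all genes 51.0% were positive. The subunit genes Ttc8 and Bbip1, counted with the other cilium genes, stood at 0.11 and -0.18 in the authors' deposited table. Bbs4 had the smallest p, at 0.34 in the authors' deposited table, with an interval of 0.06 to 0.63, an unadjusted p of 0.0192 and a DESeq2 adjusted p of 0.223. Bbs9, Bbs5, Bbs1 and Bbs7 stood at 0.27, 0.25, 0.19 and 0.05 in the authors' deposited table. The chaperonin-like genes Bbs12 and Bbs10, whose products help assemble the BBSome, had 0.28 and -0.12 in the authors' deposited table. Their intervals were -0.02 to 0.58 and -0.45 to 0.22.

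The transition zone held 2 of the 4 increases. Rpgrip1l, the scaffold on which both gate modules assemble, had an average expression of 1309 and stood at 0.46 in the authors' deposited table. Its interval was 0.25 to 0.67 and its DESeq2 adjusted p 0.00107, against 0.103 with the length and GC trend subtracted. Dzip1l, a transition zone gene mutated in human recessive polycystic kidney disease, rose 1.42-fold in the authors' deposited table. Its average expression was 1101, its log2 interval 0.21 to 0.80 and its DESeq2 adjusted p 0.0319. All 5 genes grouped with the NPHP module and the cilium base had positive values, against 51.0% of all genes. The others were Cep290, which tethers the gate to the microtubules, at 0.39, Dzip1, the paralogue of Dzip1l, at 0.30, and Nphp4 at 0.27 in the authors' deposited table. Their DESeq2 adjusted p were 0.420, 0.336 and 0.804, and Nphp4 had the lowest average expression of all 44, 46.7 in the authors' deposited table. Transcripts of the 5 genes of this group had 4350 to 8211 bases. Of 4901 genes of at least 1 CPM with 4000 bases or more, 68.4% had positive values.

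In the MKS module 0 of 10 genes passed, against 3.09% of all genes. At an unadjusted DESeq2 p of 0.05, 2 were higher, against 5.94% of all genes. Those 2 encode membrane proteins of the gate. Tmem231 had 0.55 in the authors' deposited table, with an interval of 0.15 to 0.96 and a DESeq2 adjusted p of 0.133. Tmem67 (meckelin) had 0.51 in the authors' deposited table, with an interval of 0.05 to 0.97 and a DESeq2 adjusted p of 0.286. Tmem216 at 0.32 and Cc2d2a at 0.30 in the authors' deposited table had intervals that included 0. The tectonic genes Tctn1, Tctn2 and Tctn3 stood at 0.08, 0.03 and -0.03, and the B9-domain genes Mks1, B9d1 and B9d2 at 0.05, -0.04 and -0.42 in the authors' deposited table. The interval of B9d2 ran from -1.03 to 0.20.

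The 3 small GTPase genes stood near 0. Of these 0 had an unadjusted DESeq2 p under 0.05, against 5.94% higher and 8.23% lower over all genes. Arl13b, which marks the ciliary membrane, Arl3, which releases lipid-anchored cargo inside the cilium, and Arl6, which recruits the BBSome to membranes, had 0.03, 0.01 and -0.04 in the authors' deposited table. Their implied intervals ran from -0.22 to 0.28, from -0.36 to 0.38 and from -0.41 to 0.32, all inside 1.5-fold.

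RFX transcription factors are known to bind the X-box, an imperfect inverted repeat in promoters of many ciliary genes, so promoters were examined for a sequence feature that did not enter the choice of genes. Promoter sequences were those of RefSeq on GRCm38.p6, from 250 bases before to 50 bases after the start site, and 40 of the 44 genes had 48 such windows. The motif searched was GTNNCC, then 0 to 3 bases of any kind, then NGNAAC, on either strand. The shorter motif GTTGCC, one arm of the repeat, was searched on either strand as well and can lie inside the longer one. The longer motif stood in 29.2% of the cilium windows, in 16.8% of windows of 90 other cilium genes, in 5.36% of windows of genes of at least 1 CPM and in 5.25% of all 32851 windows. The shorter motif stood in 39.6% of the cilium windows and in 27.1% of windows of the 90 other cilium genes. Its share was 12.3% in windows of genes of at least 1 CPM and 12.5% in all windows. These shares describe letters in a window and are not binding sites. The 14 genes with the longer motif held 16 matches, and 9 of these contained the shorter one. All 8 matches in windows of transition zone genes, 5 of which contain the shorter motif, are printed to show how far the repeat varies. They run 5′ to 3′ along the gene, with the match in capitals and the coordinates of the stretch on GRCm38.p6. Those of Tctn2, Tmem216 and Tmem231 match on the strand opposite to the gene, so their capitals show the reverse complement of the motif.
B9d2, chr7:25680784-25680821, plus strand: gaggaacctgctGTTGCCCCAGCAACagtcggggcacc
Mks1, chr11:87853179-87853216, plus strand: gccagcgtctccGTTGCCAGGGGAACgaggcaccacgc
Nphp4, chr4:152477899-152477936, plus strand: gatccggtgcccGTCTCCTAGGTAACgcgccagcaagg
Tctn1, chr5:122264411-122264436, minus strand: taggctgtgactGTTGCCCGGGCAAC
Tctn2, chr5:124598675-124598712, plus strand: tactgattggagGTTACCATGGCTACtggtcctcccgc
Tctn3, chr19:40612347-40612383, minus strand: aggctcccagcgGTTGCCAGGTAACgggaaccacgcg
Tmem216, chr19:10555719-10555756, minus strand: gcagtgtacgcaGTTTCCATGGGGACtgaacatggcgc
Tmem231, chr8:111933777-111933814, minus strand: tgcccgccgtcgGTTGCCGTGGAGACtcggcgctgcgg
None of the 4 cilium genes that passed the threshold had the longer motif in its window. The shorter motif was present for Wdr35 and Ift88. That is 2 of the 4 genes past the threshold, against 17 of the 36 with a window that did not pass. The stretches around it are shown, for Ift88 as the reverse complement.
Wdr35, chr12:8974029-8974050, plus strand: tgggcggcggtgGTTGCCaggc
Ift88, chr14:57424080-57424109, plus strand: ggagtcgcgcctGGCAACggctgggcgtcc
The windows of Rpgrip1l and Dzip1l held neither motif. The 14 genes with the longer motif had a median log2 fold change of 0.09, and the 26 with a window and no such motif had a median of 0.21.

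Fold change followed transcript length, among the cilium genes as over the whole table. Across the 44 genes Spearman's rank correlation of log2 fold change with transcript length was 0.53, and across 13786 genes of at least 1 CPM it was 0.37. These correlations are across genes that share the same libraries, and genes are not independent replicates. The rank correlation with transcript GC content was -0.33 across the 44 and -0.28 across the 13786. The 9 cilium genes with transcripts under 2000 bases, Ift20, Ift27 and B9d2 among them, had a median of -0.04, against -0.16 for 3332 genes of that length. The 17 of 4000 bases or more, which include Rpgrip1l, Wdr35 and Dzip1l, had a median of 0.30, against 0.10 for 4901 genes of that length.

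**Figure D3:**
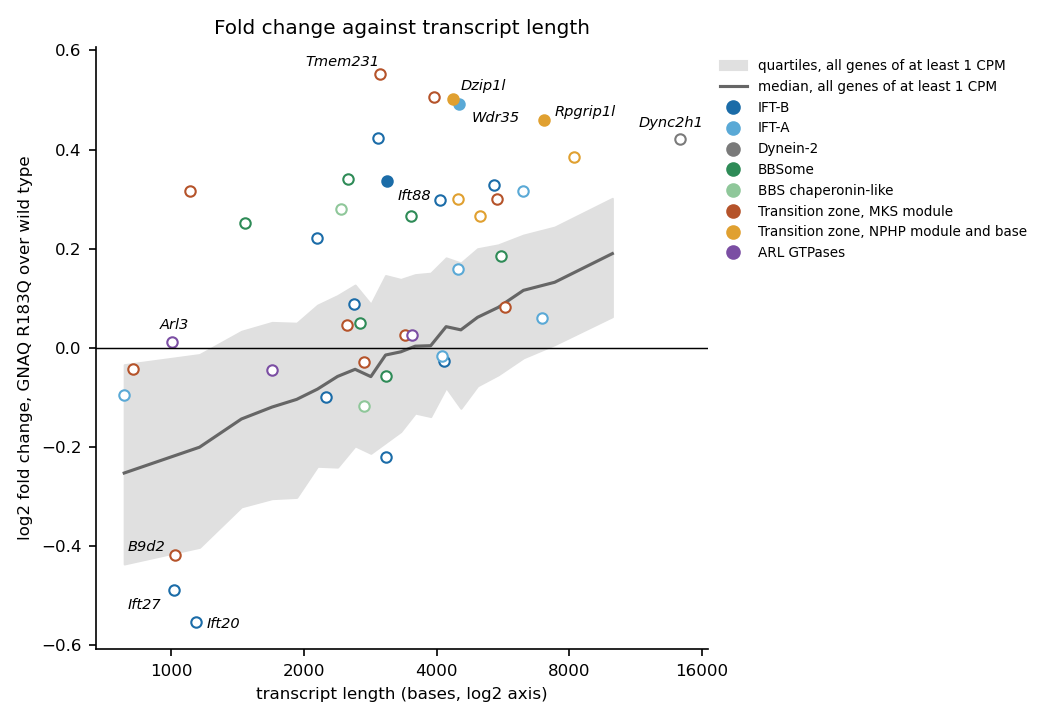
Transcript length in bases (log2 axis) and log2 fold change, GNAQ R183Q against wild type, of the 44 cilium genes (points, filled where the adjusted p was under 0.05), with the median and quartiles of genes of at least 1 CPM in 20 length bins. The grey line rises with length, Ift20, Ift27 and B9d2 lie below it at its short end, and Rpgrip1l lies above it at a length of 7009 bases.

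When the trend on length and GC was subtracted from the fold changes, 3 of the 4 increases passed and Rpgrip1l did not. Its value became 0.30, with a Benjamini-Hochberg adjusted p of 0.103 from the implied error. Dzip1l stood at 0.53 with an adjusted p of 0.0203 from that normal reference, Wdr35 at 0.42 with 0.0438 and Ift88 at 0.32 with 0.0474. These adjustments covered the 17631 genes with a transcript length, whereas the deposited ones covered all 20152. Ift20 and Ift27 became -0.40 and -0.25, and Dync2h1 0.20. The median of the 44 was then 0.19, against 0.02 for genes within the same range of expression. The part of length and GC in these differences was not tested.

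**Figure D4:**
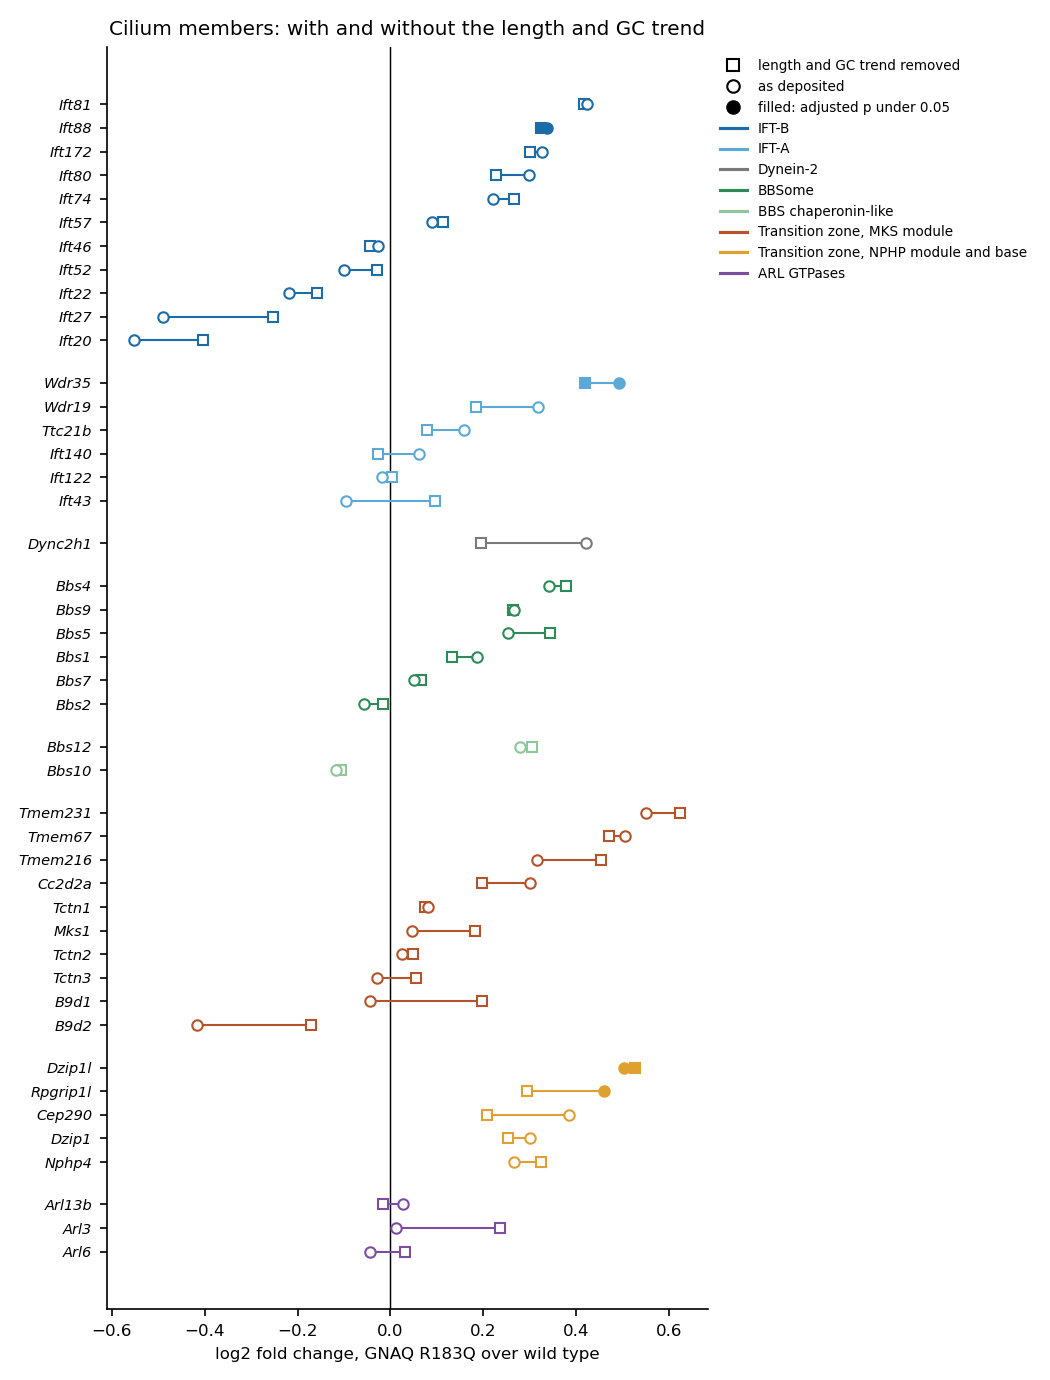
Log2 fold changes (GNAQ R183Q against wild type) of each cilium gene with the trend on length and GC subtracted (squares) and as deposited (circles), filled where the adjusted p was under 0.05. Rpgrip1l moves from 0.46 as deposited to 0.30 and loses its fill, and the values of Ift88, Wdr35 and Dzip1l remain filled.

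Levels were compared between genes as average expression per kilobase of transcript over all 8 libraries, which pools the genotypes. Arl3 was highest with 1459, followed by Ift20 with 1014 and Ift43 with 672 units per kilobase. Nphp4 was lowest with 9.28, below Bbs1 with 28.8 and Dync2h1 with 39.5. Among the 4 genes that rose, the level was 253 for Dzip1l, 213 for Ift88, 187 for Rpgrip1l and 156 units per kilobase for Wdr35. No spread over libraries can be given for these levels, so the order of close neighbours is not a tested difference.

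**Figure D5:**
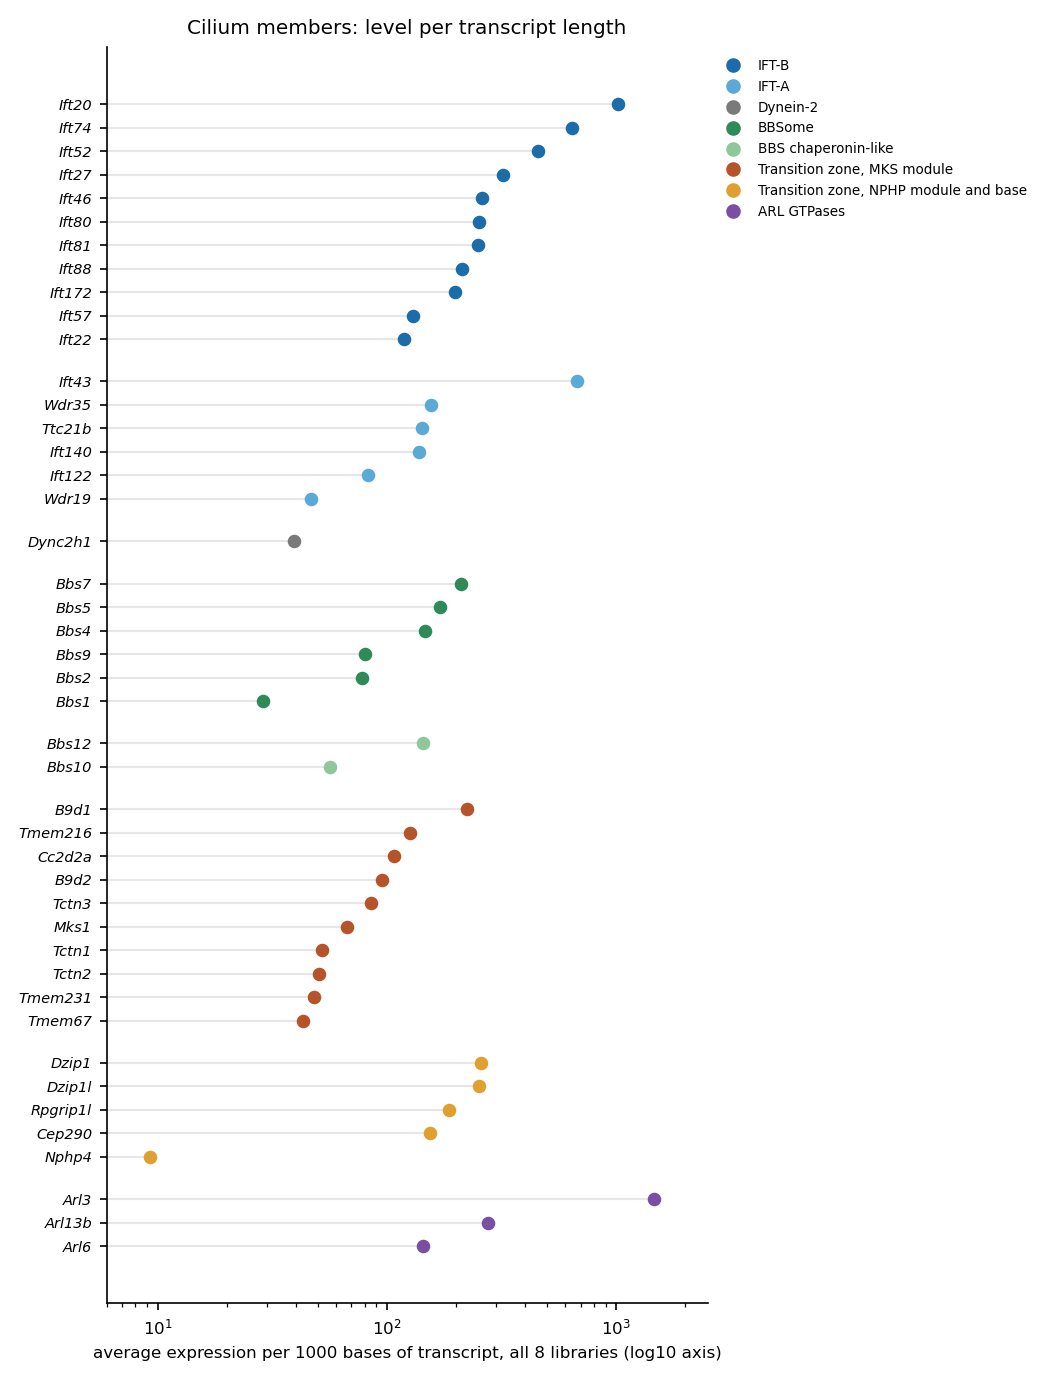
Average expression per kilobase of transcript over all 8 libraries (log10 axis) for each cilium gene, ordered within its role group. Arl3, at 1459, and Ift20, at 1014, stand highest, and Nphp4, at 9.28, lowest.

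Other cilium genes were examined as 8 lists of 111 symbols, of which 101 had a row. Of these 0 passed the authors' DESeq2 threshold, against 3.09% of all genes. At an unadjusted DESeq2 p of 0.05, 11 were higher and 1 lower, against 5.94% and 8.23% of all genes. Positive values were seen for 72, against 51.0% of all genes. The linear model rebuilt from mean z-scores also called 0 of the 101. At an unadjusted p of 0.05 that model gave 12 higher and 1 lower, against 5.81% and 6.51% of all genes. Their median log2 fold change was 0.11. Kif17, a kinesin of ciliary tips, had the smallest p, at 1.25 in the authors' deposited table. Its interval was 0.36 to 2.14 and its DESeq2 adjusted p 0.116, and its average expression of 15.9 lay under the level read as 1 CPM. The kinesin-II motor gene Kif3a stood at 0.25 in the authors' deposited table, where its DESeq2 adjusted p was 0.260. Of the other 8 IFT genes Ttc30a2 and Cluap1 had the smallest p, at 1.20 and 0.18 in the authors' deposited table. Ttc30a2 had an average expression of 7.93, under the level read as 1 CPM, and a DESeq2 adjusted p of 0.471. Of 6 other genes of the BBSome and its assembly, Mkks at -0.14 and Ttc8 at 0.11 had the smallest p in the authors' deposited table. Of these 14 genes 0 had an unadjusted DESeq2 p under 0.05.

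Of 18 other transition zone genes 11 had positive and 7 negative values, with a median of 0.04, where 51.0% of all genes were positive. At an unadjusted DESeq2 p of 0.05, 3 were higher and 0 lower, against 5.94% and 8.23% of all genes. Among these 18 genes Tmem138 stood at 0.46 and Iqcb1 at 0.27 in the authors' deposited table, with DESeq2 adjusted p of 0.269 and 0.271. Of the 101 genes, 2 passed the separation bound upward, Kif17 and Iqcb1, and 0 downward, against 0.729% and 1.85% of all genes. Kif17 had a mean z-score of 0.864 in GNAQ R183Q skin and -0.864 in wild-type skin in the authors' deposited table, and Iqcb1 had 0.815 in GNAQ R183Q skin and -0.815 in wild-type skin in the authors' deposited table. Of 23 genes of the basal body and of ciliogenesis onset 19 had positive and 4 negative values, with a median of 0.16. The median transcript length of these 23 was 4453 bases. Of 4901 genes of at least 1 CPM with 4000 bases or more, 68.4% were positive. The planar polarity effector Intu stood at 0.42 and Ccp110, which caps centrioles, at 0.36 in the authors' deposited table, while Fuz stood at -0.48. Their DESeq2 adjusted p were 0.156, 0.206 and 0.325.

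The list of ciliary membrane proteins and Hedgehog components showed 0 of 18 genes past the DESeq2 threshold and 0 at an unadjusted p of 0.05. Over all genes 3.09% passed the threshold, and 5.94% were higher and 8.23% lower at that unadjusted p. Of the 18 genes Hhip and Pkd2 had the smallest p, at 0.42 and 0.27 in the authors' deposited table. Gli1 and Ptch1, which like Hhip are Hedgehog target genes, stood at 0.14 and -0.03 in the authors' deposited table. Intervals were -0.08 to 0.93 for Hhip, -0.17 to 0.45 for Gli1 and -0.47 to 0.42 for Ptch1. Of 8 regulators with a row, the RFX factors Rfx7 and Rfx3 had the smallest p, at 0.34 and 0.31 in the authors' deposited table, with DESeq2 adjusted p of 0.343 and 0.366. Foxj1, the regulator of motile cilia, had an average expression of 3.67 in the authors' deposited table, under the level read as 1 CPM.

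Motile cilium genes were scarce in this tissue. The 10 of 16 with a row had average expression between 1.69 and 57.9, against 46.7 to 1466 for the 44 genes. Ccdc39 and Dnah11 had the smallest p, at 0.66 and 0.71 in the authors' deposited table, with DESeq2 adjusted p of 0.256 and 0.302.

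Cell type markers moved in the same libraries. The 6 keratinocyte markers that fell reached down to -3.70 on the log2 scale for Lor of the cornified layer in the authors' deposited table. Basal keratins were split. Krt15 was among the 6, and its deposited log2 value was -1.01 with a DESeq2 adjusted p of 0.000533. The deposited values of Krt5 and Krt14, also of the basal layer, were -0.12 and -0.19, and neither passed. Of 6 dermal fibroblast markers 1, Dpt, fell. Muscle markers fell in 2 of 5 genes, mast cell markers in 2 of 3, and endothelial, melanocyte and neural markers in 0 of 3, 0 of 3 and 0 of 5 by the authors' DESeq2 test. At an unadjusted p of 0.05 the endothelial and melanocyte lists had 0 genes in either direction, and the neural list 1 higher and 1 lower. Of the 12 multiciliated cell markers 8 had a row, with average expression summing to 174. Gnaq itself, at 0.09 in the authors' deposited table with a DESeq2 adjusted p of 0.804, was not used to check the genotype, because the table gives no reads per allele.

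Exons of another gene on the opposite strand overlap 10 of the 44 genes in GENCODE vM21, and whether counting used strand is not given in the sources used here. Such overlap covered 28.4% of exon bases for Dzip1 and 25.5% for Tctn1, so their values are uncertain. It covered 1.45% for Ift88, by its antisense gene Ift88os, and 0 bases for Rpgrip1l, Wdr35 and Dzip1l.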

How the data were processed

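The values came from a table of the authors' comparison of back skin from 4 GNAQ R183Q and 4 wild-type embryo samples, described by the submitters as biologically independent and given 1 batch label. Libraries were stranded TruSeq from total RNA, per the labels' protocols. DESeq2 and the build mm39 are listed in the submitters' processing notes. How reads were aligned, counted and filtered, and on which annotation, is not given in the sources used here. Library depths are unknown, and no counting error can be given.

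Average expression, a signal averaged by the authors, was read as normalized counts. Log2 fold changes were deposited as GNAQ R183Q relative to control. Every p-value was deposited raw and adjusted, and the adjusted ones equal a Benjamini-Hochberg adjustment over 20152 genes. Z-scores of log2 CPM are scores deposited per genotype, as means and medians. A count test planned for values per library could not be run on this table, so the authors' adjusted p with a threshold of 0.05 was used. An implied error was obtained by dividing the size of each log2 value by the normal quantile of its p, which assumes a Wald test without shrinkage, and intervals cover 95%.

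Transcript length and GC came by symbol from the longest transcript, protein-coding first, of GENCODE vM21 on GRCm38, which is not the authors' build. All 44 cilium genes and 96.0% of genes of at least 1 CPM matched. Natural splines with 4 degrees of freedom each in log2 length and GC (patsy 1.0.2) were fitted to 13786 genes. A linear model with 6 residual degrees of freedom was rebuilt from the mean z-scores. Both computations, and the implied error, were tested on simulated data. The simulated z-scores were scaled by the sample standard deviation, and the simulated p-values came from an unshrunken Wald test. For the linear model and the implied error this checks the arithmetic, and not whether the deposited values meet those assumptions. Computation used Python 3.11.15, pandas 2.3.3, numpy 2.4.6 and scipy 1.17.1.

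The cilium genes, their role groups, the other lists and the markers were chosen with earlier results of these data known. Genes were named by a rule: all 44, with intervals for those past the threshold and for the smallest p and the extremes of each role group, then the 2 of smallest p in each other list, except for an item not reported here. Iqcb1, Fuz, Bbip1, Gli1, Ptch1, Foxj1, Lor, Krt5, Krt14, Krt15 and Dpt were named outside it, after their values were seen.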

Additional observations from a re-analysis of the deposited data

How the results depend on the processing

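Cilium genes past the threshold numbered 4 as deposited, and 4 also when p-values were adjusted over genes of at least 1 CPM and when fold changes were centred on the median of all genes, and 3 once the trend on length and GC was subtracted. At an unadjusted DESeq2 p of 0.05 there were 12 cilium genes and 12 other cilium genes, against 2855 of all 20152 genes. With at least 2-fold change required there were 0 cilium genes, since none changed that much. The linear model from mean z-scores called 0 cilium genes and 0 of all 20152 genes, whose smallest adjusted p was 0.0503, and at an unadjusted p of 0.05 it gave 9 higher and 0 lower cilium genes, against 5.81% and 6.51% of all genes. It shares no spread between genes. The median of the 44 was 0.17 after centring and 0.19 after removal of the trend.

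Cilium genes with values near 0 changed sign. After removal of the trend these were Ift43 at 0.10, Ift122 at 0.0038, Ift140 at -0.027, Tctn3 at 0.056, B9d1 at 0.20, Arl13b at -0.0154 and Arl6 at 0.0316. By the difference of mean z-scores, GNAQ R183Q minus wild type, they were Ift46 at 0.13, Ift122 at 0.0023, Tctn3 at 0.0129, B9d1 at 0.114 and Arl6 at 0.0202. None had passed the threshold, and the cause was not tested.

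No paired analysis was possible because the table holds no value per library, and no replicate block was fitted. For the same reason leaving out each library, and comparing edgeR with DESeq2 normalization or low-count filters on counts, was not run. Whether 1 embryo decides a value is limited to what the z-scores show.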

Other observations

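For several cilium genes the mean and the median z-score of a genotype differed in sign, which describes the spread among its 4 libraries. Arl13b had a mean z-score of 0.174 and a median of -0.362 in GNAQ R183Q skin in the authors' deposited table. Bbs2 had a mean of -0.101 and a median of 0.330 in GNAQ R183Q skin in the authors' deposited table. Ift122 had a mean near 0 in both genotypes, with medians of -0.357 in GNAQ R183Q skin and 0.318 in wild-type skin in the authors' deposited table. Ift43 showed the reverse order, with medians of 0.204 in GNAQ R183Q skin and -0.607 in wild-type skin in the authors' deposited table. The sign of the fold change and of the mean z-score differed for 5 of the 44 genes, none of them past the threshold, against 4.31% of all genes.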
